A study of Mus musculus with 39 samples.

Results

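Untreated differentiation from day 3 to day 5 is described here from 6 arrays: 3 of mouse embryonic stem cells (ESCs) held for 5 days in differentiation medium without growth factors, set against 3 held there for 3 days. They were taken by their labels as the control arrays of those days, 6 of the 39 arrays of the series, and their measured values played no part in that. The study asked which miRNAs accompany the turn of ESCs towards endoderm under Activin A at 100 ng/ml, Wnt3a at 50 ng/ml or both. Besides the ESCs, it collected cells with each treatment and control cells at days 1, 3 and 5, and each of the 13 groups has 3 arrays. Every group comes from 1 line, TCL-1, made from 129/SvJae mice and grown on feeder fibroblasts. A stay of 1 hour on gelatin took the feeders away, and collagen-coated plates carried the cells through differentiation. RPMI medium with B27 was common to control and treated cells, and control cells received neither Activin A nor Wnt3a. The medium also held a sodium salt, printed as butyrate in the study's methods and as "byruate" in its supplementary protocol. The labels do not say whether the 3 samples of a group were separate cultures, so the p-values measure only the spread between these samples.

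ESCs owe most of their miRNA to the miR-290 to miR-295 cluster, and cells on the way to the primed epiblast add the miR-302/miR-367 cluster. A miRNA finds its targets mainly through its seed, the bases just after its 5′ end, so miRNAs with the same seed tend to repress the same mRNAs. ESCs that differentiate without added signals often turn towards the neural lineage, where miR-9 and miR-124 are the best known miRNAs, while epithelial cells keep the miR-200 family.

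The mature sequences of the miRNAs on which the results turn are credited to RefSeq, build GRCm38.p6. They are written 5′ to 3′ with the seed, bases 2 to 8, in capitals. The array uses older names, so each was matched to the arm it is known to stand for, and 29 of 31 names looked up were found. No sequence was found for miR-302a and miR-124, so neither is printed. The miRNAs to print were chosen with their values known. The first set is the pluripotency miRNAs of both clusters, shown because 5 of them carry a common seed although they come from different clusters.
miR-291a-3p: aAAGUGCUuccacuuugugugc
miR-294: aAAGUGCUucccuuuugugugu
miR-295: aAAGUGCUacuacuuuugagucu
miR-302b: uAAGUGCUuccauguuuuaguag
miR-302d: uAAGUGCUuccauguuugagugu
miR-302c: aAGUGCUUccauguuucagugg
miR-367: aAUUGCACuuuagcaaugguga

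The second set is the miR-200 family of epithelial cells, which falls into 2 seeds.
miR-200b: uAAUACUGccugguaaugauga
miR-200c: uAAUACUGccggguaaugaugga
miR-429: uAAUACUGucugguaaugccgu
miR-200a: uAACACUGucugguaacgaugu
miR-141: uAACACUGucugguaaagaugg

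The third set holds the neural miRNAs, among them both arms of the miR-9 precursor, together with miR-135a and miR-344, which stood out among the rises. Every one of these has a seed of its own.
miR-9: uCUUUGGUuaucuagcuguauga
miR-9*: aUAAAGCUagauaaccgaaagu
miR-219: uGAUUGUCcaaacgcaauucu
miR-135a: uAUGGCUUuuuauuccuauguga
miR-344: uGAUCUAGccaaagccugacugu

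The fourth set shows families in which members with the same seed differed in the size or the sign of their change: miR-99/miR-100, miR-125, miR-181 and miR-15/miR-16. With them stand miR-20a and miR-301a, single members of larger families.
miR-100: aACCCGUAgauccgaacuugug
miR-99a: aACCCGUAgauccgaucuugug
miR-99b: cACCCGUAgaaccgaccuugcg
miR-125b-5p: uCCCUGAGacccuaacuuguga
miR-125a-5p: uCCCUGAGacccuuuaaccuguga
miR-181b: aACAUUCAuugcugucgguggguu
miR-181d: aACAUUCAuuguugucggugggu
miR-16: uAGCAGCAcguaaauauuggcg
miR-322: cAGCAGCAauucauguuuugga
miR-497: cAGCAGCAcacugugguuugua
miR-20a: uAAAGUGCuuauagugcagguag
miR-301a: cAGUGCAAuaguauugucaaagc

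On the day 3 arrays the scanner software detected 293, 250 and 296 of the 611 mouse miRNAs, and on the day 5 arrays 324, 319 and 315. All 3 day 5 counts lie above all 3 day 3 counts, and replicate 2 of day 3 has the lowest. The means differ by 39.7 miRNAs (exact permutation test, two-sided p 0.1, the smallest that 3 against 3 allows), or by 24.8 without that replicate. Detected on all 6 arrays were 249 miRNAs, and 280 were detected on none of them. The lowest detected signal after normalization was 3.94, 11.1 and 3.42 at day 3 and 0.89, 1.18 and 1.42 at day 5. On that scale a weak miRNA could be seen at day 5 and missed at day 3, most of all on replicate 2. Quantile normalization lowers this limit where more miRNAs are detected. Before normalization, detected scanner signals went as low as 4.9 at day 3 (miR-338-5p, replicate 1) and 4.4 at day 5 (miR-183*, replicate 3). Whether detection was more sensitive at day 5 was not tested.

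Summed over the mouse miRNAs, the scanner signals came to 83981, 87359 and 79917 on the day 3 arrays and to 87107, 84647 and 87278 on the day 5 arrays, so the totals overlap. The 75th percentile of the signals was 50.3, 50.1 and 49.5 at day 3 and 67.4, 66.4 and 68.8 at day 5, higher on every day 5 array. The day 3 arrays were on slides 2 and 3 and scanned in session 1, and the day 5 arrays were on slide 5 and scanned in session 2. Slide and scan session cannot be told apart from day within these arrays. Fitted over all 39 arrays, 67 miRNAs were called in place of the 73 given further on, and 72 were when slide was added to that fit as a random block (correlation -0.044). Of the miRNAs named by the rule in the processing section, the 6 that lost their call with the block had lost it in the fit over 39 arrays without a slide term: miR-181b (adjusted p 0.298), miR-10b (0.287), miR-218 (0.281), miR-301b (0.144), miR-322 (0.484) and miR-222 (0.0855). miR-100 (0.055) and miR-181c (0.0602) lost it only without the block, and let-7e gained a call with it (0.0494). Fitted over the 24 arrays of days 3 and 5, 79 were called.

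Marker sets, summed over their detected members as normalized signals, show what the cells carried. The 9 ESC markers of the miR-290 to miR-295 cluster, all on the array, summed to 18189, 18185 and 19406 at day 3 and to 7905, 8607 and 8271 at day 5, with miR-294 the most abundant. The 5 primed epiblast markers summed to 5955, 5822 and 6141 at day 3 and to 2084, 1998 and 2071 at day 5, led by miR-302a. Both sets are lower on every day 5 array and no member was at 0 on all arrays, so pluripotency miRNAs were still abundant at day 5.

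The 7 neural markers moved the other way, from 283, 273 and 217 at day 3 to 1050, 814 and 974 at day 5, led by miR-219, with miR-137 undetected on all 6 arrays. The 5 epithelial markers summed to 364, 379 and 388 and then to 120, 119 and 118, led by miR-200b. Feeder and mesenchymal markers, 7 in number and led by miR-21, summed to 916, 967 and 1173 and then to 1825, 1708 and 1711. Among them miR-143, miR-145 and miR-214 were undetected on all 6 arrays. Detected on all 6 were miR-22 (log2 means of 6.53 at day 3 and 6.45 at day 5), miR-199a-3p (4.48 and 4.61) and miR-21, which is also made by ESCs. Most of the sum is miR-21, whose difference depends on the scaling, so the higher sum at day 5 does too. In such bulk samples, fewer cells of a type and less RNA per cell cannot be told apart.

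Markers of later lineages were near 0. Of 4 blood markers, miR-142-3p, miR-150 and miR-451 were undetected on all 6 arrays and miR-223 led with at most 15.1 on any array. Of 4 muscle markers, miR-1, miR-133b and miR-206 were undetected, and miR-133a reached 4.3. Of 5 markers of endoderm derivatives, miR-122, miR-192, miR-194 and miR-215 were undetected, and miR-375 was detected on 1 day 3 array.

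The comparison asks which miRNAs change between day 3 and day 5 when no growth factor is given. Values are log2 of the normalized signal, with a floor at 1.00, and a miRNA was tested where at least 2 of the 3 arrays of a day detected it. Of 322 tested, 73 (22.7%) were called at an adjusted p under 0.05 and a more than 2-fold difference. Higher at day 5 were 41 of them (12.7%) and lower 32 (9.94%). In each of the 73 the 3 day 5 values lie all above or all below the 3 day 3 values, but so they do in 230 of all 322 (71.4%), so days that stand apart add little to a call. The median difference over all tested miRNAs was 0.07.

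Detection divides the 2 directions unequally. Of the 41 higher miRNAs, 19 were detected on all 6 arrays, 13 on no day 3 array and 9 on only 1 or 2 day 3 arrays. Of the 32 lower ones, 31 were detected on all 6 arrays. Restricted to the 249 miRNAs detected on all 6 arrays, the split is thus 19 higher and 31 lower.

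Scaling moves the split as well. Scaled to the 75th percentile of miRNAs detected on all 6 arrays, 55 were higher and 20 lower, with a median difference of 0.38 over all tested. Without normalization 67 were higher and 19 lower, with a median of 0.51. A floor of 8 left 27 higher, and normexp background correction with an offset of 50 left 12 calls, 5 higher and 7 lower. That offset is close to the 75th percentile of the day 3 signals, so adding it shrinks differences among most miRNAs.

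**Figure D1:**
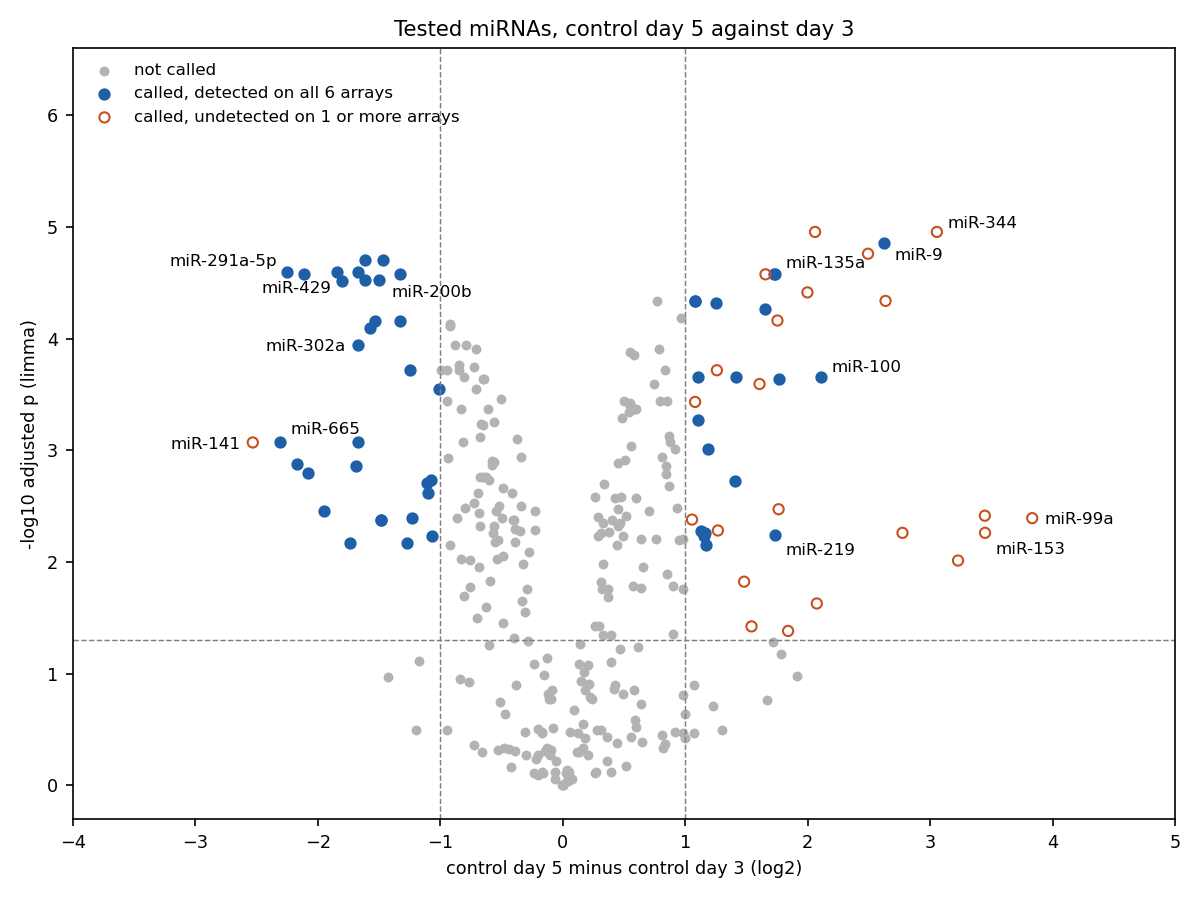
Difference of each of the 322 tested miRNAs (x axis, control day 5 minus day 3, log2) against the adjusted p from limma (y axis, -log10). Filled blue points are called and detected on all 6 arrays, open orange points are called and undetected on at least 1 array, and dashed lines mark the thresholds. The open points lie almost all on the right, where 22 of 41 higher miRNAs were undetected on some day 3 array.

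The largest rise among miRNAs detected on all 6 arrays was that of miR-9, which promotes neural progenitor differentiation. Its day 3 values were 5.18, 5.33 and 5.35 and its day 5 values 7.90, 7.90 and 7.93. The arrays of a day nearly coincide. The difference was 2.62 (SE 0.06, 6.17-fold, adjusted p 1.4e-05). Before normalization its scanner signals read 37.7, 42.5 and 40.3 on the day 3 arrays, and 273, 268 and 280 on the day 5 arrays. The other arm of the same precursor, miR-9*, read 3.39, 1.00 and 3.19 at day 3, where replicate 2 did not detect it, and 5.75, 5.75 and 5.77 at day 5. It was called higher too (3.23, adjusted p 0.0097), a size enlarged by the floor value of that replicate, without which the difference was 2.46.

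The neuronal miRNA miR-124 read 6.23, 6.01 and 5.92 at day 3 and 7.93, 7.61 and 7.90 at day 5. It rose by 1.76 (SE 0.13, 3.39-fold, adjusted p 0.000232). miR-219, best known for oligodendrocyte maturation, read 6.95, 7.10 and 6.21 and then 8.81, 8.07 and 8.57. Its replicates spread more than those of miR-9, with day 3 replicate 3 lowest, and the days still do not overlap (1.73, SE 0.32, adjusted p 0.00568).

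Of the 11 neural miRNAs on the array, 7 were tested, 6 were called higher and none lower, beside 12.7% and 9.94% over all tested. Their median difference was 1.76, beside 0.07 over all tested, and it was 1.73 over the 5 detected on all 6 arrays. The exception was miR-128, which read 4.85, 4.99 and 5.02 at day 3 and 4.47, 4.65 and 4.58 at day 5. It lay lower at day 5 by less than the threshold (-0.39), and it turned to 0.07 and 0.20 when scaled to the 75th percentile of miRNAs detected on all 6 arrays and without normalization. The 6 called members kept their direction under every scaling tried, and 2 of them kept the call with normexp correction.

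Members of the clusters that also host let-7 split into risers and non-risers. miR-100 read 4.34, 4.11 and 4.65 at day 3 and 6.45, 6.41 and 6.55 at day 5, a rise of 2.10 (SE 0.15, 4.30-fold, adjusted p 0.000219). It was not called in the fit over 39 arrays (adjusted p 0.055). With normexp correction its difference was 0.59, under 2-fold, and it was not called. miR-125b-5p, which promotes neural differentiation of stem cells, read 6.88, 6.74 and 6.86 and then 8.36, 8.57 and 8.52 (1.65, SE 0.08, adjusted p 5.47e-05). Of their seed partners, miR-99b and miR-125a-5p did not follow. miR-99b read 6.26, 6.23 and 6.49 and then 5.71, 5.82 and 5.80, and miR-125a-5p read 6.08, 5.98 and 6.28 and then 5.46, 5.61 and 5.60. Both partners lie lower at day 5 on every array, by -0.55 and -0.56, under the 2-fold threshold. The same 7 letters in capitals above thus stand in miRNAs whose differences have opposite signs. miR-99b and miR-125a-5p come from a cluster with let-7e, whereas miR-100, miR-99a and miR-125b-5p come from others.

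Over the 9 names of miR-99, miR-100 and miR-125 on the array, 7 were tested, 3 were called higher and 1 lower. The shares over all tested were 12.7% and 9.94%. The list median was 0.44, or -0.05 over the 6 detected on all arrays. The third riser was miR-99a, named here after its values were seen, which only 2 day 3 arrays detected and all day 5 arrays did. miR-125a-3p, with means of 7.01 and 7.46, was not called (0.44).

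The let-7 family, which Lin28 holds down in ESCs, had no call. Of 16 names, 6 were tested, with a median of 0.73 over all 6 and of 0.61 over the 3 detected on all arrays. Calls and median depend on the scaling: 1 was called higher when scaled to the 75th percentile of miRNAs detected on all 6 arrays, 1 with quantile normalization of log2 signals, 1 in the table the authors processed and 2 without normalization. The median was 1.36 without normalization, 0.25 with a floor of 8, 0.12 with quantile normalization of log2 signals and 0.01 with normexp correction. let-7a read 3.88, 4.34 and 4.70 at day 3 and 4.80, 4.96 and 4.99 at day 5, and let-7f 3.86, 4.17 and 3.92 and then 4.76, 4.80 and 4.80. Both are higher on every day 5 array, by 0.61 and 0.81, short of 2-fold. Earlier they stood well above either day, with means in ESCs and at day 1 of 7.21 and 8.76 for let-7a and 7.08 and 8.92 for let-7f. The ESC and day 1 means of let-7e were 6.59 and 7.82, and let-7f* was undetected in both. let-7e, which the study names, read 3.14, 1.00 and 3.09 and then 3.30, 3.30 and 3.65, with the 1.00 an undetected value. Its difference of 1.00 came to 2-fold but had an adjusted p of 0.228, and it was called only with slide as a random block over all 39 arrays (1.01). The minor arm let-7f* stood at means of 3.99 and 3.98, and the sign of that difference changes with the scaling.

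**Figure D2:**
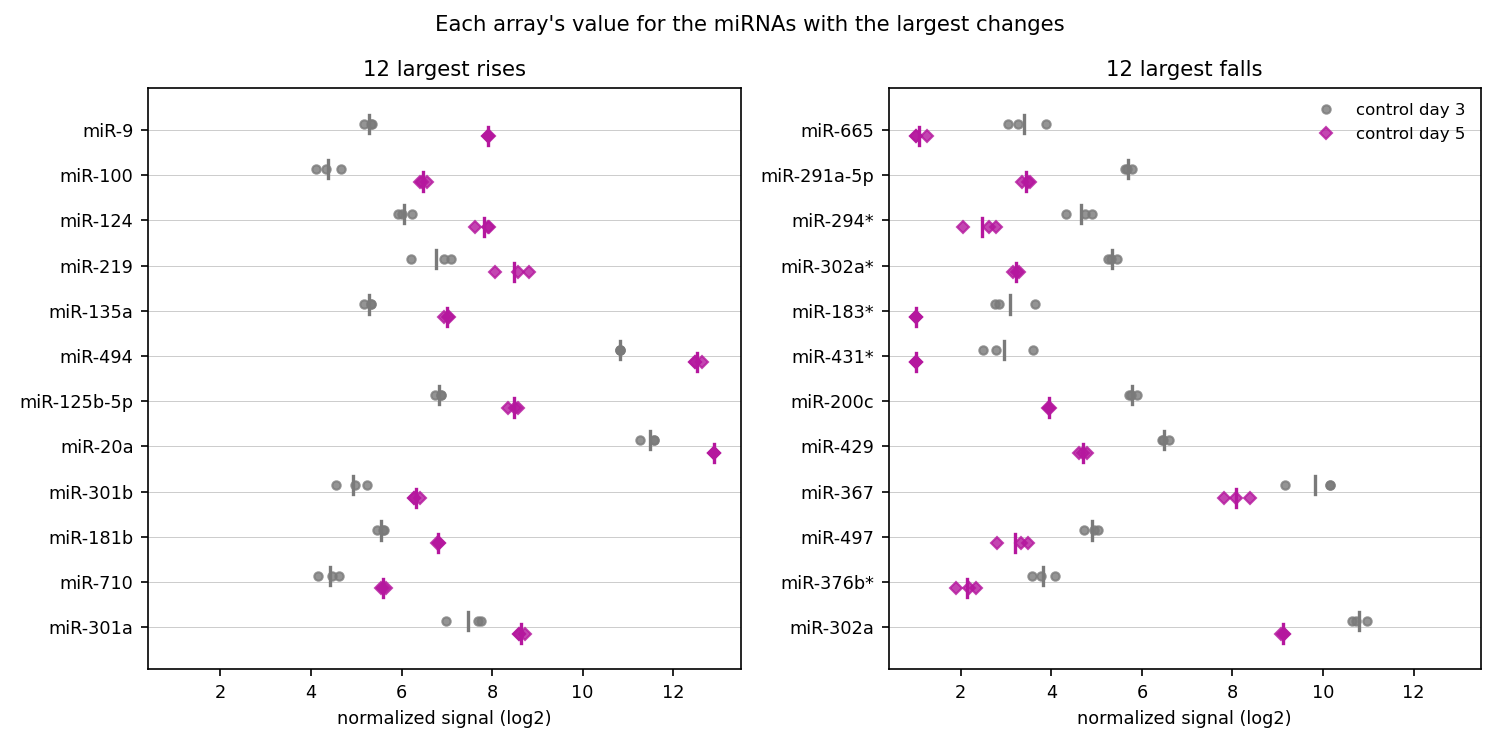
Normalized signals (log2, x axis) of the 12 largest rises and the 12 largest falls among called miRNAs detected on all 6 arrays. Grey circles are the 3 day 3 arrays, purple diamonds the 3 day 5 arrays and bars their means. The 24 were chosen so that the days do not overlap, which holds for 230 of all 322 tested (71.4%). miR-183* and miR-431* sit on the floor of 1.00 on all day 5 arrays.

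Other rises touched miRNAs of several roles. miR-135a, known from the brain, stood at 5.33, 5.32 and 5.18 at day 3 and 7.05, 6.95 and 7.02 at day 5 (1.73, SE 0.06, 3.32-fold, adjusted p 2.66e-05). miR-301b read 4.98, 5.23 and 4.56 and then 6.41, 6.28 and 6.28 (1.40), and miR-301a 7.69, 7.75 and 6.97 and then 8.72, 8.60 and 8.60 (1.17). In both, day 3 replicate 3 is the lowest array, and without it miR-301a comes to 0.92, under 2-fold. miR-301a was not called either when scaled to the 75th percentile over all miRNAs (0.76). The call of miR-301b was lost in the fit over 39 arrays, with or without slide. miR-710 read 4.47, 4.61 and 4.15 and then 5.58, 5.65 and 5.55 (1.19, adjusted p 0.000983), and came to 0.98 with quantile normalization within the 6 arrays.

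At the top of the intensity range the values show rank. Quantile normalization gave miR-20a, a member of the miR-17 to miR-92 cluster, 12.89 on all 3 day 5 arrays and 11.59, 11.59 and 11.27 at day 3 (1.41). Its scanner signals read 2971, 3147 and 2774, then 4077, 4054 and 4128. Scaled to the 75th percentile over all miRNAs its difference was 0.03, and without normalization 0.47, neither past the threshold. miR-494 read 10.81 on all day 3 arrays and 12.48, 12.48 and 12.64 at day 5 (1.72), with scanner signals of 2022, 2133 and 1826 and then 4021, 3898 and 4063. Its difference was 0.57 under the same 75th percentile scaling and 1.01 without normalization. For both miRNAs every day 5 array is above every day 3 array in either kind of value, and the size depends on the scaling.

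The miR-181 family, active in neural and lymphoid cells, had 4 of 6 names tested and 3 called higher (0 with normexp correction). Over all tested 12.7% were called higher. The family median was 1.26, or 0.78 with the undetected member at its bound. miR-181b read 5.46, 5.61 and 5.60 at day 3 and 6.82, 6.82 and 6.78 at day 5 (1.25, SE 0.06, adjusted p 4.84e-05), a call lost in the fit over 39 arrays, with or without slide. miR-181d, with the same seed, read 4.78, 5.09 and 4.82 and then 5.20, 5.18 and 5.20, no overlap but only 0.30 apart. miR-181c was undetected on all day 3 arrays and weak at day 5 (2.20, 2.43 and 2.15), too weak to give a fold.

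Of the 13 called miRNAs seen on no day 3 array and on all day 5 arrays, 9 had a day 5 mean above 2.41, the mean of the lowest detected levels of the 3 day 3 arrays. The bounds given here are set against that mean. On the normalized scale, only the means of miR-344, miR-542-3p and miR-804 lay above the lowest detected signal of day 3 replicate 2, 11.1. Before normalization that array detected let-7f* at a scanner signal of 6.3. The day 5 scanner signals were higher for miR-193 (16.3, 13.7 and 15.7) and miR-325 (13.9, 14.3 and 14.9). The brightest were miR-344 at 3.96, 4.13 and 4.07 (at least 3.13-fold higher) and miR-542-3p at 3.52, 3.88 and 3.50 (at least 2.34-fold). miR-804 followed at 3.60, 3.39 and 3.48 (at least 2.12-fold), then miR-193 at 3.00, 3.09 and 3.09 (at least 1.57-fold), miR-325 at 2.84, 3.12 and 3.04 (at least 1.50-fold) and miR-546 at 2.97, 2.17 and 3.14 (at least 1.28-fold). Of these 6, only miR-344 kept its call with a floor of 8. No called miRNA was undetected on all day 5 arrays after being detected on all day 3 arrays.

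Among the falls, the pluripotency clusters come first. miR-294, the most abundant ESC miRNA and a driver of the short ESC cell cycle, read 12.89 on all 3 day 3 arrays and 11.13, 11.27 and 11.27 at day 5. It fell by 1.67 (SE 0.05, 3.19-fold, adjusted p 2.53e-05). Its scanner signals were 4699, 4730 and 4952 and then 2092, 2047 and 2226, lower on every day 5 array before normalization as well. Quantile normalization within the 6 arrays alone brought it to -0.93, under 2-fold. miR-293 read 11.13 on all day 3 arrays and 9.65, 10.38 and 10.16 at day 5 (-1.07), and came to -0.86 without day 5 replicate 1, the lowest array.

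miR-295 read 11.75, 11.75 and 12.18 and then 10.98, 11.13 and 10.98 (-0.86). miR-292-3p read 11.27, 11.27 and 11.43 and then 10.47 on all 3 (-0.85, adjusted p 0.000192). Both are lower on every day 5 array, by less than 2-fold, and both were called without normalization (-1.13 and -1.22). Among the minor arms, miR-291a-5p read 5.67, 5.63 and 5.79 and then 3.48, 3.35 and 3.52 (-2.25, SE 0.07, adjusted p 2.53e-05), and miR-294* 4.73, 4.31 and 4.90 and then 2.62, 2.77 and 2.04 (-2.17, SE 0.26, adjusted p 0.00132). These are the largest falls of the cluster. The arms miR-295* (-1.48, adjusted p 0.00417) and miR-292-5p (-1.10, adjusted p 0.0024) were called lower too. Not called were miR-290-5p (0.06), miR-290-3p (-0.60, adjusted p 0.0149) and miR-291b-5p (0.84), the last undetected on day 3 replicate 2. Of the 14 names of the cluster, 12 were tested, 7 were called lower and none higher, beside 9.94% and 12.7% over all tested. The cluster median was -1.08. The median stayed negative under every scaling tried, with 9 to 11 of the 12 below 0, but only 3 were called with quantile normalization within the 6 arrays and 3 with normexp correction.

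The miR-302/miR-367 cluster had 6 of 8 names tested, a median of -1.62 and all 6 called lower, beside 9.94% called lower over all tested. Its members were lower under every scaling tried, and 5 of 6 were called with quantile normalization within the 6 arrays, 4 with normexp correction. miR-302a read 10.74, 10.64 and 10.98 at day 3 and 9.13, 9.07 and 9.13 at day 5 (-1.67, SE 0.10, 3.19-fold, adjusted p 0.000113). miR-302b read 10.27, 10.27 and 10.47 and then 8.66, 8.81 and 8.81 (-1.58), and miR-302d 10.38, 10.38 and 10.64 and then 9.22 on all 3 (-1.25). In each, the 3 day 5 arrays lie close together and well under day 3. miR-367, whose seed differs from that of its neighbours, read 10.16, 10.16 and 9.16 and then 8.39, 7.81 and 8.07 (-1.74, SE 0.34, adjusted p 0.00678). Day 3 replicate 3 is the low one there and still above day 5. The minor arm miR-302a* went from 5.32, 5.25 and 5.46 to 3.14, 3.25 and 3.30 (-2.11).

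Among the printed sequences, the seed common to miR-291a-3p, miR-294, miR-295, miR-302b and miR-302d was thus carried by 4 called falls. The exception was miR-295 at -0.86.

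The miR-200 family, which keeps cells epithelial by repressing Zeb1 and Zeb2, had 5 of 9 names tested and all 5 called lower. Over all tested 9.94% were called lower. The family median was -1.80, or -1.67 over the 4 detected on all arrays. miR-200c read 5.71, 5.75 and 5.89 at day 3 and 3.92, 3.96 and 3.94 at day 5 (-1.84, SE 0.06, 3.59-fold, adjusted p 2.54e-05). miR-429 read 6.44, 6.47 and 6.59 and then 4.61, 4.78 and 4.70 (-1.80), miR-200b 7.32, 7.36 and 7.47 and then 5.92, 5.84 and 5.89 (-1.50), and miR-200a 5.77, 5.79 and 5.55 and then 4.15, 4.20 and 4.15 (-1.54). Both seeds of the family fell together and no day 5 array reaches a day 3 array. Under every scaling tried all 5 were lower, with 4 called without normalization and 0 called with normexp correction. The fifth, miR-141, named here after its values were seen, was at the floor on every day 5 array.

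The miR-183/miR-96/miR-182 cluster of sensory and stem cells had all 4 names tested and 3 called lower, beside 9.94% over all tested. The cluster median of -1.17 was negative under every scaling tried. All 4 were called when scaled to the 75th percentile over all miRNAs (miR-182 at -1.26), but 1 when scaled to the 75th percentile of miRNAs detected on all 6 arrays, 1 without normalization and 0 with normexp correction. miR-183 read 7.24, 7.20 and 7.36 and then 5.86, 5.94 and 6.01 (-1.33), miR-96 8.32, 8.36 and 8.11 and then 7.27, 7.24 and 7.24 (-1.01), and miR-182 7.02, 6.95 and 7.12 and then 6.08, 6.03 and 6.15 (-0.95). All 3 are lower on every day 5 array. miR-96 sits at the threshold: it came to -0.98 without day 3 replicate 1 and to -0.96 without day 3 replicate 2, and was then not called. miR-183* read 2.75, 3.65 and 2.84 and then the floor of 1.00 on all 3 (-2.08). Its scanner signals were only 7.1, 7.5 and 8.8 at day 3, and a floor of 8 brought the difference to -0.22.

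The Dlk1-Dio3 cluster, a large imprinted cluster expressed from the maternal allele, is the broadest of the lists. Of 72 names, 52 were tested, 4 were called lower and 1 higher, beside 9.94% and 12.7% over all tested. The median was -0.66, with 46 of 52 below 0 and 41 lower at an adjusted p under 0.05. Over all 322 tested, 152 were below 0 and 106 were lower at that p. The shift stayed negative under every scaling tried, from -0.78 to -0.23, with 40 members below 0 without normalization, and the lower calls ranged from 0 to 9. miR-127 read 9.16, 9.13 and 9.22 and then 8.52, 8.77 and 8.66 (-0.52), miR-300 8.94, 8.87 and 8.94 and then 8.21, 8.32 and 8.26 (-0.65), and miR-410 8.77 on all 3 and then 8.26, 8.48 and 8.39 (-0.40). In each the days lie apart by a small step. The called member that was higher is miR-494, described above.

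Of the 4 members called lower, 3 were dim. miR-665 read 3.04, 3.88 and 3.27 and then 1.00, 1.26 and 1.00 (-2.31), miR-431* 2.77, 3.60 and 2.48 and then 1.00 on all 3 (-1.95), and miR-376b* 3.77, 4.07 and 3.58 and then 1.90, 2.33 and 2.17 (-1.67). Day 3 replicate 2 is the highest array for all 3 of them. With a floor of 8 they came to -0.40, -0.20 and -0.81 and were not called, so their sizes rest on signals near the limit of detection. The fourth, miR-433, named here after its values were seen, was brighter, at 4.96, 5.07 and 5.11 and then 3.39, 3.50 and 3.39 (-1.62, SE 0.06, adjusted p 3.02e-05), and kept its call with a floor of 8. It was not called when scaled to the 75th percentile of miRNAs detected on all 6 arrays (-0.95), without normalization (-0.82), with normexp correction (-0.22) or in the fit over 39 arrays, with or without slide (adjusted p 0.128 and 0.134).

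The miR-29 family, which targets collagens and DNA methyltransferases, had 3 of 6 names tested and 2 called lower, beside 9.94% over all tested. The family median was -1.27. miR-29a read 5.73, 5.77 and 5.68 and then 4.42, 4.43 and 4.34 (-1.33), and miR-29b 4.31, 4.82 and 3.88 and then 3.09, 3.06 and 3.06 (-1.27). Neither was called without normalization (-0.64 and -0.52). miR-29c, at 4.43, 3.94 and 4.11 and then 4.09, 4.05 and 3.96, overlaps between the days, and its sign depends on the scaling.

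The miR-15/miR-16 and miR-322/miR-503 list of cell cycle regulators holds names that went opposite ways, among them miR-16, miR-322 and miR-497 with a common seed. It also holds the star arms miR-322* and miR-15b*, which come from the other strand and do not share it, and miR-322* is one of its calls. Of 12 names, 9 were tested, 4 were called higher and 1 lower, beside 12.7% and 9.94% over all tested. The list median was 0.98, or 0.26 with the undetected member at its bound. miR-322 read 6.99, 6.93 and 6.99 and then 8.04, 8.11 and 8.01 (1.08), and miR-16 9.57, 9.49 and 9.74 and then 10.64, 10.74 and 10.74 (1.11). miR-497, with the same capitals, went down, from 5.02, 4.71 and 4.94 to 3.32, 3.48 and 2.81 (-1.69, SE 0.20, adjusted p 0.00138). It was not called when scaled to the 75th percentile of miRNAs detected on all 6 arrays (-0.94), without normalization (-0.81) or with normexp correction (-0.37). miR-16 came to 0.07 when scaled to the 75th percentile over all miRNAs, and miR-322 to 0.75, and miR-322 was not called in the fit over 39 arrays, with or without slide. In the family 2 were called higher with the 75th percentile scaling over all miRNAs and 0 with normexp correction. miR-15b (9.74, 9.65 and 10.27, then 10.81, 10.98 and 10.81) and miR-15a (means of 7.87 and 8.13) were not called. Leaving out day 3 replicate 3 moved miR-15b from 0.98 to 1.18, and leaving out day 5 replicate 1 or 3 moved it to 1.01, each past 2-fold. Scaled to the 75th percentile over all miRNAs, miR-15b turned to -0.0525 and miR-15a to -0.0476.

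**Figure D3:**
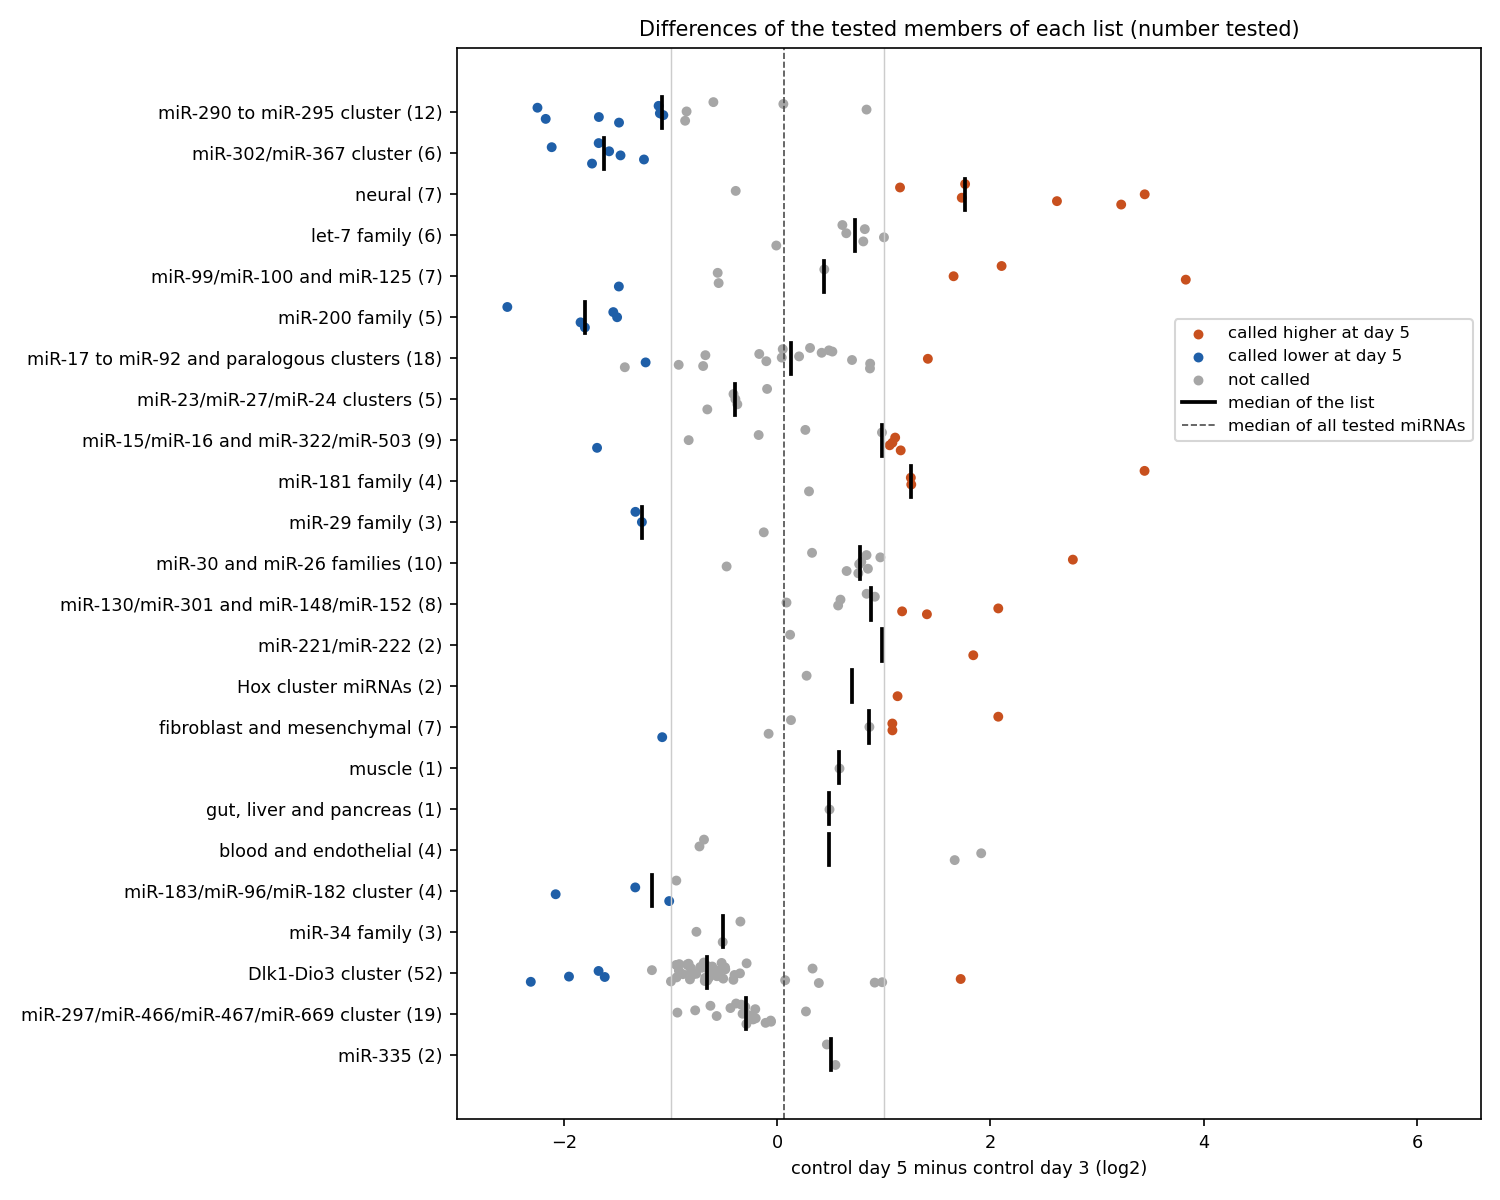
Differences of all tested members of the 24 lists (x axis, control day 5 minus day 3, log2), with the number tested beside each list. Orange and blue points are called higher and lower, grey points are not called, black bars are list medians and the dashed line is the median of 0.07 over all tested. The miR-302/miR-367 and miR-200 members lie wholly at the left. The Dlk1-Dio3 cluster is shifted to a median of -0.66, with 4 called lower and 1 higher.

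Other lists lay higher at day 5 in most members, often by less than 2-fold. The miR-30 and miR-26 families, broadly expressed in differentiated cells, had 10 of 13 names tested and a median of 0.78. At an adjusted p under 0.05, 9 of the 10 were higher, beside 106 of 322 over all tested. Only miR-30a* was called, no larger a share than the 12.7% over all tested. Without normalization 5 were called with a median of 1.04, and with normexp correction 0 with a median of 0.31. miR-30a read 6.82, 6.71 and 6.71 and then 7.72 on all 3 (0.97), miR-30c 7.41, 7.39 and 7.41 and then 8.17 on all 3 (0.77), and miR-26b 7.34, 7.32 and 7.44 and then 8.14, 8.26 and 8.21 (0.84). Each is higher on all day 5 arrays and short of 2-fold. miR-30a reached 1.00 without day 3 replicate 1 and was then called, and miR-26a had means of 8.67 and 9.00. The miR-130/miR-301 and miR-148/miR-152 list had 8 of 9 tested, 3 called higher (0 with normexp correction, 5 with quantile normalization of log2 signals), none lower and a median of 0.88, or 0.28 with normexp correction. Over all tested 12.7% were called higher. Higher at an adjusted p under 0.05 were 7 of the 8, beside 106 of 322 over all tested. miR-130a read 10.64, 10.74 and 10.38 and then 11.43 on all 3 (0.84), and miR-130b 9.00, 9.07 and 9.00 and then 9.74, 10.04 and 10.04 (0.92, or 1.02 and called without day 5 replicate 1). miR-148a had means of 6.41 and 6.50, and its sign turned to -0.19 when scaled to the 75th percentile over all miRNAs.

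The miR-17 to miR-92 clusters, which support proliferation, had 18 of 20 names tested, 1 called higher and 1 lower, beside 12.7% and 9.94% over all tested. At an adjusted p under 0.05 there were 7 higher and 4 lower, beside 106 of 322 in each direction over all tested. Among them were miR-25 (0.87), miR-93 (0.87) and miR-363 (-0.92). The median of 0.13 was 0.26 when scaled to the 75th percentile of miRNAs detected on all 6 arrays and 0.39 without normalization, and turned to -0.05 when scaled to the 75th percentile over all miRNAs. miR-92a read 12.18, 12.18 and 12.48 and then 11.59 on all 3 (-0.69), lower on every day 5 array and short of 2-fold. miR-20b (12.48, 12.48 and 12.64, then 12.18, 12.64 and 12.48) and miR-19b (12.64, 12.64 and 11.59, then 12.64, 12.18 and 12.18) overlap between the days. Without day 3 replicate 3, its one low array, miR-19b moved from 0.04 to -0.31.

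The miR-23/miR-27/miR-24 clusters of vascular and mesenchymal cells had 5 of 9 tested, none called and a median of -0.39, with miR-23a at means of 6.97 and 6.88, miR-23b at 6.84 and 6.43, miR-24 at 7.46 and 7.07 and miR-27a at 6.58 and 6.20. The miR-34 family, targets of p53, had 3 of 8 tested, none called and a median of -0.51, which turned to 0.04 without normalization. miR-34a stood at means of 8.83 and 8.49, miR-34b-5p at 3.62 and 2.87 and miR-34c at 3.69 and 3.18. The miR-297/miR-466/miR-467/miR-669 repeat cluster in Sfmbt2 had 19 of 39 tested, none called and a median of -0.29, which turned to 0.03 and 0.16 when scaled to the 75th percentile of miRNAs detected on all 6 arrays and without normalization. With quantile normalization of log2 signals 3 of them were called lower, and 1 in the table the authors processed. Its brightest members were miR-669f (7.79 and 7.50), miR-466a-3p (7.78 and 7.44), miR-669a (7.20 and 6.98) and miR-467b (6.95 and 6.67). No member of these 3 lists reached 2-fold with the scaling used here.

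Among mesenchymal and fibroblast miRNAs, 7 of 18 were tested, 3 were called higher and 1 lower, beside 12.7% and 9.94% over all tested. The list median was 0.87, or 0.13 with the undetected member at its bound. With normexp correction 0 were called in either direction. The lower call was also lost with quantile normalization within the 6 arrays, with both 75th percentile scalings and without normalization. miR-218, a neuronal and mesenchymal miRNA that the study names, read 5.82, 5.94 and 5.84 and then 6.93, 6.97 and 6.95 (1.08, SE 0.05, adjusted p 4.6e-05). It was not called in the fit over 39 arrays, with or without slide, or when scaled to the 75th percentile over all miRNAs (0.82). miR-21 read 9.65, 9.74 and 10.04 and then 10.74, 10.64 and 10.64 (0.87), miR-22 had means of 6.53 and 6.45 and miR-199a-3p of 4.48 and 4.61. miR-21 turned to -0.09 when scaled to the 75th percentile over all miRNAs, with scanner signals of 973, 1046 and 898 and then 1216, 1244 and 1246.

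The remaining lists were thinly filled. Hox cluster miRNAs, which pattern the body axis, had 2 of 9 tested: miR-10b, at 3.96, 4.28 and 4.71 and then 5.37, 5.48 and 5.50, was called higher (1.13), and miR-10a, at 3.92, 4.43 and 4.73 and then 4.63, 4.67 and 4.61, overlapped. Their median was 0.70. miR-10b came to 0.95 without day 3 replicate 1 and was then not called, nor was it with quantile normalization within the 6 arrays or in the fit over 39 arrays, with or without slide. miR-196a and miR-196b were undetected on all 6 arrays. Of miR-221 and miR-222, with a median of 0.98, miR-222 was called higher (2.97, 1.00 and 1.00, then 3.54, 3.37 and 3.58) with 1 day 3 array detecting it. That call was lost on leaving out any array other than day 3 replicate 1, with differences of 1.51 to 1.90, and in the fit over 39 arrays, with or without slide. miR-221 (means of 6.30 and 6.42) was not called.

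Muscle miRNAs had 1 of 8 tested and a difference of 0.58, and gut, liver and pancreas miRNAs 1 of 8 and 0.49, each from a miRNA seen on no day 3 array, for which the bound gives no difference. Blood and endothelial miRNAs had 4 of 11 tested and a median of 0.49, which turned to -0.02 with normexp correction. miR-126-3p, an endothelial miRNA, read 4.71, 4.96 and 4.96 and then 4.07, 4.34 and 4.17 (-0.69). None in these 3 lists was called, but 1 gut, liver and pancreas miRNA was called higher without normalization (1.70) and with both 75th percentile scalings (1.09 over all miRNAs, 1.63 over those detected on all 6 arrays). miR-126-3p was called lower in the table the authors processed (-1.09) and with quantile normalization of log2 signals (-1.60). Without normalization miR-126-3p turned to 0.0449.

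Both arms of miR-335, made from an intron of Mest, were tested and not called, with a median of 0.51. miR-335-5p read 8.72 on all day 3 arrays and 9.27 on all day 5 arrays (0.55), and miR-335-3p 7.84, 7.69 and 7.96 and then 8.29, 8.29 and 8.32 (0.47). Both are higher on every day 5 array by less than 2-fold. Of other miRNAs the study names, miR-338-5p was called higher (2.17, 1.00 and 1.00, then 2.81, 2.97 and 2.84), with 1 day 3 array detecting it, and lost the call without day 3 replicate 3 (1.29) and with a floor of 8. miR-685 (5.52, 5.37 and 5.67, then 5.82, 5.73 and 5.98) and the hypoxia-responsive miR-210 (6.67, 6.76 and 6.65, then 6.40, 6.35 and 6.30) moved by less than 2-fold without overlap. miR-375 was not tested, with detection on 1 array.

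Where the cells came from puts the step in place. From day 1 to day 3 of the control course, 148 of 297 tested miRNAs (49.8%) were called. That comparison shares the day 3 arrays with the one above, so values are only set side by side. After normalization the lowest detected signals were 29.9, 34.0 and 15.9 on ESC arrays and 32.5, 15.1 and 23.5 on control day 1 arrays. A miRNA undetected there could lie anywhere under those levels. miR-9 was undetected on the ESC and day 1 arrays, stood at a mean of 5.29 at day 3 and went on to 7.91. miR-135a and miR-219 had the same order, undetected, then 5.28 and 6.75, then 7.01 and 8.48. miR-125b-5p turned: it read 10.79 at day 1, 6.83 at day 3 and 8.48 at day 5. The miR-302/miR-367 cluster turned the other way, with miR-302a at 8.11, 10.79 and 9.11 and miR-367 at 7.51, 9.82 and 8.09. miR-294 went from 13.32 at day 1 through 12.89 to 11.22, and miR-429 from 7.22 through 6.50 to 4.69.

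**Figure D4:**
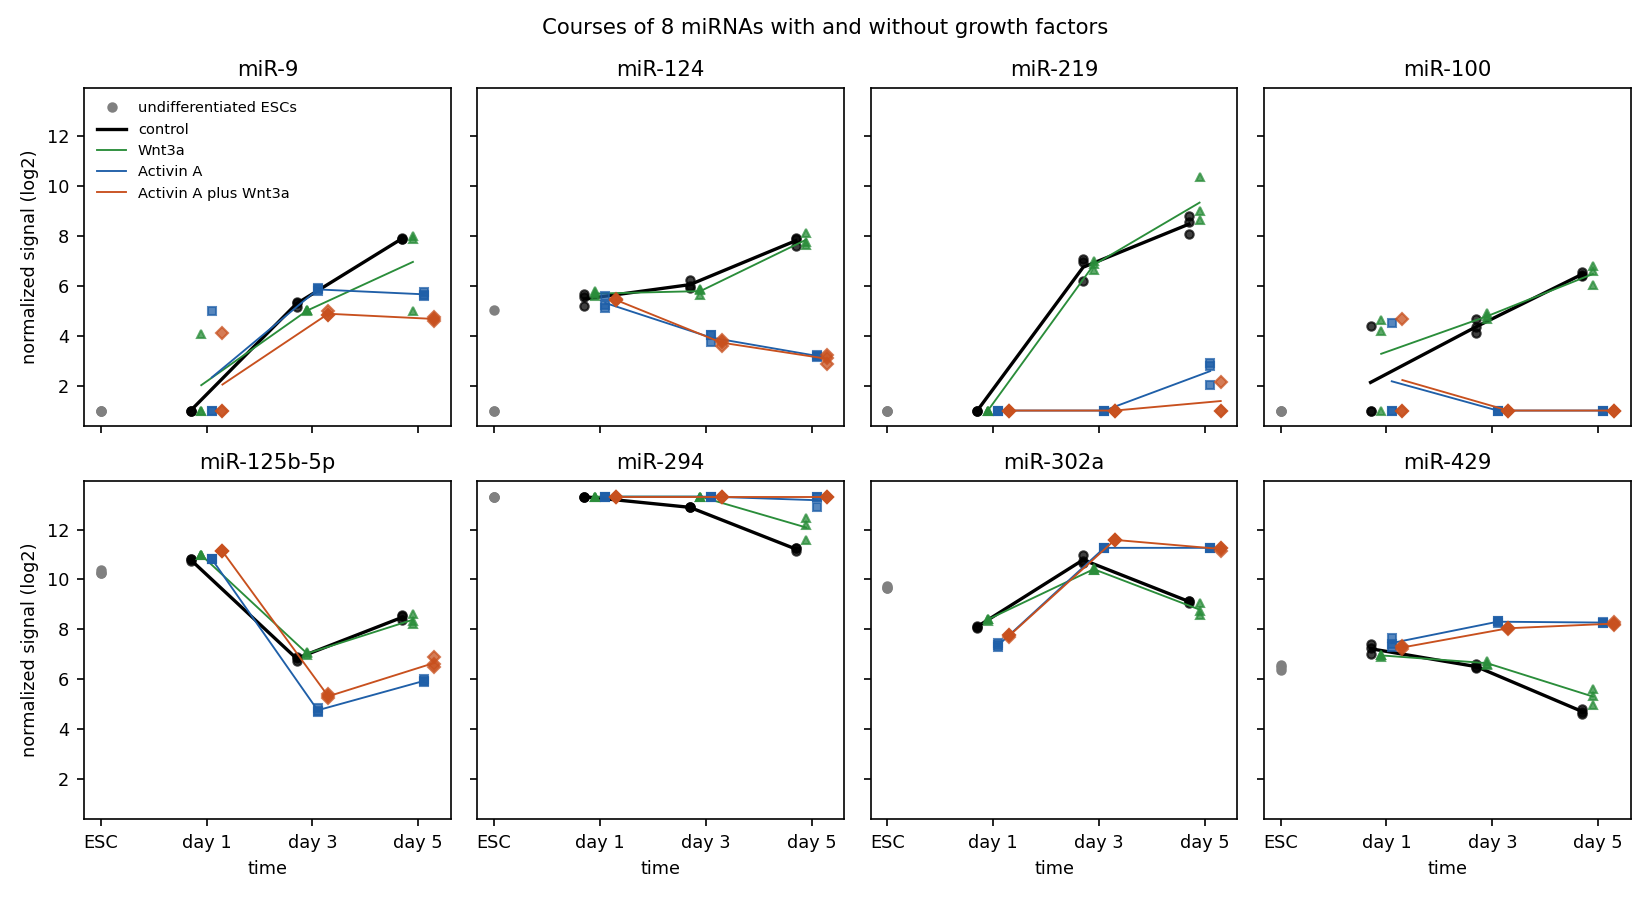
Normalized signals (log2, y axis) of 8 miRNAs in ESCs and at days 1, 3 and 5, with points for arrays and lines through group means. Black is control, green Wnt3a, blue Activin A and orange Activin A plus Wnt3a. In control, miR-125b-5p is lowest at day 3, miR-302a highest at day 3, and miR-9 and miR-219 go on rising to day 5.

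To ask which of these changes were different without growth factors, the day 3 to 5 change in control was tested against the change under each treatment over 24 arrays, with a difference over 1 and an adjusted p under 0.05. It differed from that under Activin A plus Wnt3a for 55 of 359 miRNAs (15.3%), 27 more positive in control and 28 more negative. From Activin A alone it differed for 43 (12%), 23 and 20, and from Wnt3a alone for 8 (2.23%), 7 and 1. Scaled to the 75th percentile of miRNAs detected on all 24 arrays, the first split was 45 and 12, and without normalization it was 30 and 12. With these 2 settings the Activin A count was 33 (19 and 14) and 27 (12 and 15). The Wnt3a count was 4 (2 and 2) and 3 (1 and 2). Within their own arrays, 24 of 311 miRNAs (7.72%) changed from day 3 to 5 under Activin A plus Wnt3a, 27 of 330 (8.18%) under Activin A and 45 of 346 (13%) under Wnt3a.

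Activin A and Wnt3a arrays were scanned like the control arrays, day 3 in session 1 and day 5 in session 2, but both days of Activin A plus Wnt3a were scanned in session 2. For the latter, scan session and treatment cannot be told apart. With slide as a fixed term the Activin A count was 38. In the table the authors processed, the Activin A and Activin A plus Wnt3a columns are exchanged relative to the scanner files. The scanner labels are used here, and an exchange would swap the counts of 55 and 43. By the scanner labels, day 3 miR-10a read 3.30, 3.14 and 3.06 with Activin A and was undetected on all 3 arrays with both. It read 5.67, 5.75 and 5.86 with Wnt3a and 3.92, 4.43 and 4.73 in control. Which labels are right was not tested.

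The Wnt3a count is the least settled. Leaving out single arrays moved it between 5 and 20, with 15 without Wnt3a day 5 replicate 1, 20 without replicate 3 of that group, 12 without its replicate 2, 11 without control day 3 replicate 3 and 5 without control day 3 replicate 2. miR-9 shows the spread: on the Wnt3a day 5 arrays it read 4.99, 7.90 and 8.01, so replicate 1 stands with the day 3 arrays (5.02, 4.99 and 5.02). Among the 24 named rises and falls, 0 were called different between control and Wnt3a (limma), with or without that replicate. Some passed on adjusted p but not on size. miR-200c did so with the replicate (-0.67, adjusted p 0.00214) and without it (-0.55, 0.000336). miR-494 (0.87, 0.00255) and miR-9 (-0.32, 0.0366) did so only without it. Over all 359 tested, 48 had an unadjusted p under 0.05. With slide as a fixed term the count was 1, miR-150, and with that term over 39 arrays 4. Control and Wnt3a day 5 arrays were on slides 5 and 4. The 8 called without it were miR-141, miR-16, miR-21, miR-325 and miR-551b, together with miR-150, miR-196b and miR-293*, whose control change was 0. A difference that was not called does not show that the courses were alike.

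Against Activin A plus Wnt3a, 5 of the 12 named rises and 10 of the 12 named falls were called different, beside 55 of 359 (15.3%) over all tested. The named miRNAs were picked by the size of their control change, which is part of the difference tested, so such a tally is raised by the choice. miR-9 stood at 4.83, 4.83 and 4.99 at day 3 and 4.67, 4.76 and 4.59 at day 5 there, no rise, beside 2.62 in control (difference of changes 2.83, SE 0.68, adjusted p 0.00398). With Activin A alone it read 5.86, 5.80 and 5.92 and then 5.77, 5.65 and 5.58 (2.82, adjusted p 0.00557). At day 3 the 4 media were within about 1 unit of each other, and at day 5 control and Wnt3a replicates 2 and 3 stood above both Activin A media.

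miR-124 read 3.83, 3.74 and 3.60 and then 3.25, 3.12 and 2.86 with both factors, so it was already low at day 3 and lower at day 5, while control rose (2.41, SE 0.19, adjusted p 2.26e-08). miR-100 was undetected on all arrays of Activin A plus Wnt3a and of Activin A at both days, so its difference of 2.10 is the control rise set against the floor. miR-494 (1.44) and miR-20a (1.23) also rose more in control. miR-125b-5p rose in all 4 media, by 1.65 in control, 1.34 with both factors, 1.18 with Activin A and 1.36 with Wnt3a, and was not called different. miR-710 rose by 1.19, 1.19, 1.23 and 1.39 in the same order.

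Epithelial miRNAs differed too. miR-429 read 8.01, 8.07 and 8.04 at day 3 and 8.17, 8.21 and 8.29 at day 5 with both factors, and 8.32, 8.26 and 8.32 and then 8.26, 8.29 and 8.26 with Activin A. Control dropped instead (difference of changes -1.99, SE 0.15, adjusted p 1.44e-08, and -1.77 against Activin A). miR-200c gave -1.75 and -1.50. Under Wnt3a the changes of miR-429 and miR-200c were -1.34 and -1.17, with all day 5 arrays under all day 3 arrays, but that of miR-141 was 0.02 beside -2.53 in control (-2.55, adjusted p 0.00214), a difference not called with slide as a fixed term (adjusted p 0.0994).

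Of the miR-302/miR-367 members, miR-302a, miR-367 and miR-302a* had changes called different as well. miR-302a read 11.27 on all 6 Activin A arrays, and 11.59 on all day 3 and 11.27, 11.13 and 11.27 on the day 5 arrays of both factors. Its change in control differed from these by -1.67 (adjusted p 4.52e-08) and -1.31 (adjusted p 8.24e-07). miR-367 gave -1.35 and -1.38, and miR-302a* -2.13 and -1.33. Their own changes were -0.39 and -0.35 for miR-367 and 0.02 and -0.78 for miR-302a*, and with both factors miR-302b read 11.13, 11.13 and 10.98 and then 10.16, 10.27 and 10.47, so not every member kept its level. The miR-302a values are at high ranks, where equal numbers mean equal rank. miR-291a-5p and miR-294* dropped less with the factors, by -0.81 each with both, but the differences of -1.44 and -1.36 were not called (adjusted p 0.095 and 0.0582).

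The rest of the called falls were miR-665 (-1.52), miR-183* (-1.63), miR-431* (-1.50), miR-497 (-1.18) and miR-376b* (-1.62), whose fall was larger in control than with both factors and whose day 5 signals were weak. Among the named rises, miR-181b was the only one called larger under Activin A: from 3.14, 1.00 and 1.00 to 4.73, 4.63 and 5.05, undetected on 2 of the day 3 arrays, against a control rise of 1.25 (-1.84, adjusted p 0.0479).

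**Figure D5:**
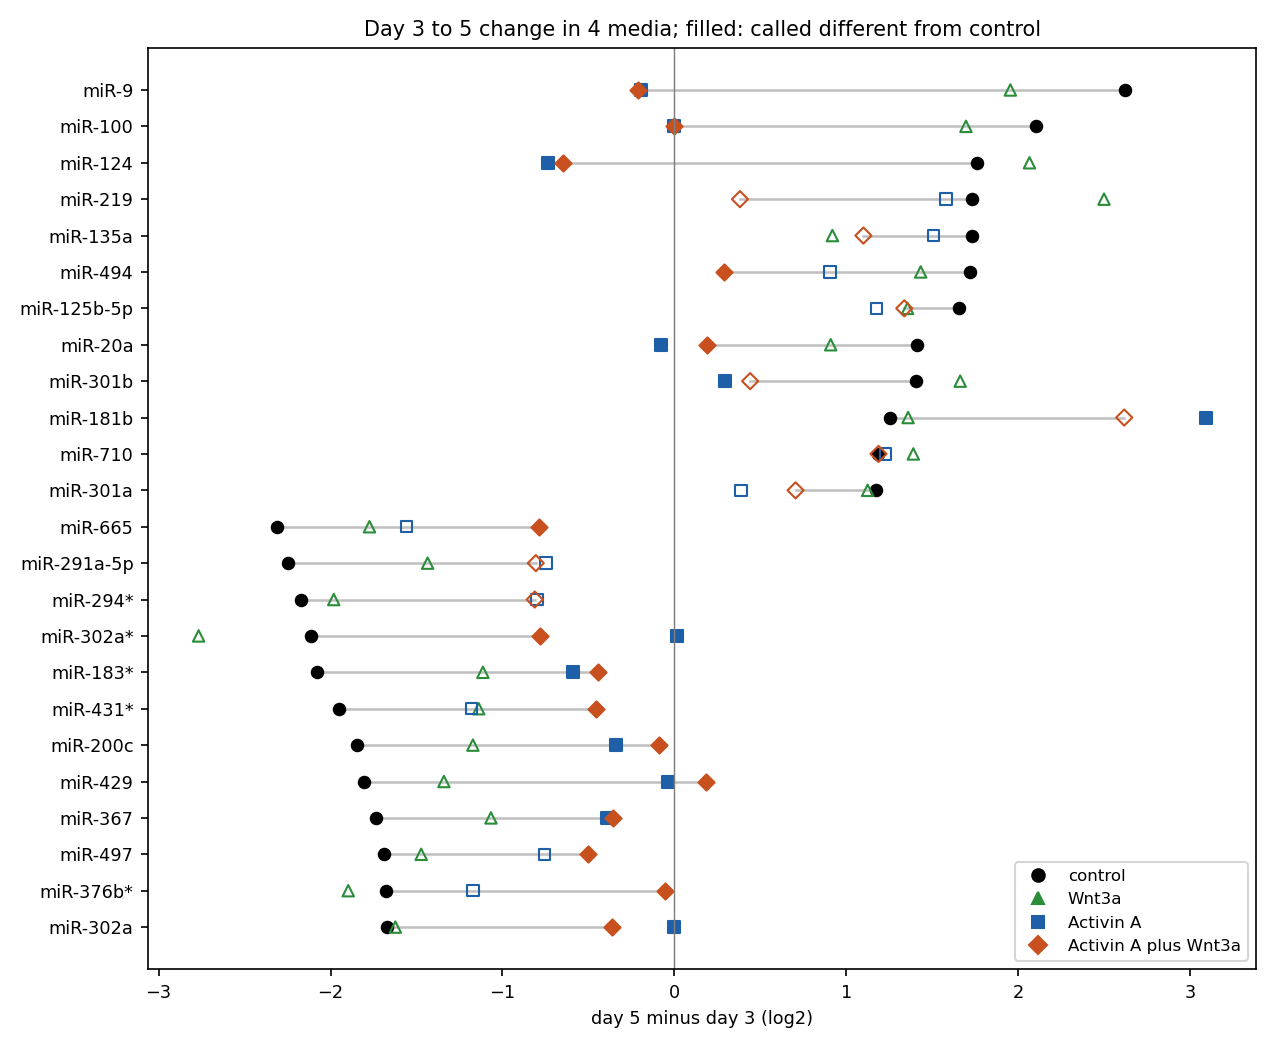
Mean change from day 3 to day 5 (x axis, log2) of the 24 named miRNAs in control (black), Wnt3a (green), Activin A (blue) and Activin A plus Wnt3a (orange), with grey lines from control to the last. Filled treatment symbols mark changes called different from control. The falls of control lie left of Activin A plus Wnt3a for all 12, and no Wnt3a symbol is filled.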

How the data were processed

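Total RNA of 39 samples in 13 groups of 3 was read on 1-colour Agilent miRNA arrays. The scanner files were made by the authors with Feature Extraction 10.7.3.1, and the deposited total gene signals are intensity in arbitrary units. The deposited detection flags (other) are 0 or 1 per miRNA. The deposited processed table holds log2 intensity and was used only as an alternative. Members and lists were chosen with earlier results of these data known.

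Each array has 13715 spots, 13000 of them not controls, with 0 saturated on the arrays compared. Names starting with mmu gave 611 mouse miRNAs. Signals were quantile normalized over the 39 arrays, floored at 2 and put on log2. A miRNA was tested when detected on at least 2 of 3 arrays of either day, and limma gave moderated tests with Benjamini-Hochberg adjustment. A call needs both a difference over 2-fold and an adjusted p below 0.05. The change in control minus that under each treatment was tested over the 24 arrays of days 3 and 5. Code was tested on simulated data.

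Named miRNAs follow a fixed rule: the 12 largest called rises and falls detected on all 6 arrays, the 6 largest lower bounds, the 4 brightest members of each of 24 lists, and miRNAs the study names. Those rises and falls also had to show no overlap between the days. For a miRNA undetected on all arrays of a day, the fold is a lower bound from the lowest detected signals. Alternatives were other scalings, floors, filters, models, array sets, slide terms, normexp background correction and leaving out each array. Quantile normalization over all 650 names was added after seeing the data. R 4.3.3, limma 3.58.1, statmod 1.5.0, Python 3.11.15, numpy 2.4.6, pandas 2.3.3 and scipy 1.17.1 were used.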

Additional observations from a re-analysis of the deposited data

Results flagged for a closer look

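Among the miRNAs with the largest control changes, 15 were called different from Activin A plus Wnt3a in their day 3 to 5 change. They were chosen by the control change that enters this difference, so their number says nothing about miRNAs in general, of which 55 of 359 (15.3%) were called. As control minus treated change on the log2 scale, the values were 2.83 for miR-9, 2.10 for miR-100, 2.41 for miR-124, 1.44 for miR-494 and 1.23 for miR-20a. They were -1.52 for miR-665, -1.33 for miR-302a*, -1.63 for miR-183*, -1.50 for miR-431*, -1.75 for miR-200c, -1.99 for miR-429, -1.38 for miR-367, -1.18 for miR-497, -1.62 for miR-376b* and -1.31 for miR-302a. Both days of that treatment were scanned in session 2, so session and treatment cannot be told apart, and the cause was not tested.

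A probe for a mouse cytomegalovirus miRNA, mcmv-miR-M23-1-3p, gave a mean scanner signal of 447.7 on the control day 5 arrays and 284.6 on the day 3 arrays. It was 56.1 in ESCs and 3.0 at control day 1. The array carries 39 viral names, and 4 were detected on all 6 arrays. Whether the probe reads a mouse RNA was not tested.

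The p-values rest on 3 samples per group from 1 line, whose independence is not stated. Slide and scan session change together with day. More miRNAs were detected at day 5, and whether detection was more sensitive there was not tested. Rises from undetected levels are thus weaker evidence than falls among detected miRNAs. The number of higher and lower calls depends on the scaling.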

How the results depend on the processing

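Of the 48 named miRNAs that were called, 6 kept the call under every alternative, 11 lost it only under normexp background correction and 31 under another, and none reversed direction. The cause of these differences was not tested.

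Among the headline counts, 73 miRNAs were called, 41 higher and 32 lower. Scaled to the 75th percentile of miRNAs detected on all 6 arrays, the lower count was 20. Without normalization the higher count was 67 and the lower 19. Normexp correction gave 12 calls, 5 higher and 7 lower. A floor of 8 gave 27 higher, and restriction to miRNAs detected on all 6 arrays gave 19 higher. Leaving out 1 array at a time gave 70 to 82 calls, 38 to 44 higher and 31 to 38 lower. The fit over 39 arrays gave 67 calls, 36 higher and 31 lower, and that over 24 arrays 79, 45 and 34. With slide as a random block over 39 arrays there were 72 calls, 41 higher and 31 lower. Of the miRNAs named by rule, miR-181b, miR-10b, miR-218, miR-301b, miR-322 and miR-222 lost their call with the block, as they did in the fit over 39 arrays without it. Slide as a fixed term was not run for the day comparison or for the Activin A plus Wnt3a comparison, since it could not be estimated. A replicate block gave 71 calls, 39 higher and 32 lower. Replicate numbers do not pair the arrays: same-number correlations across 249 miRNAs were 0.077, 0.095 and 0.275.

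The difference in detected miRNAs, 39.7, ranged from 24.8 to 47.8 when 1 array was left out, with an exact permutation p of 0.2 each. The change in control differed from Activin A plus Wnt3a for 55 miRNAs (49 to 68 leaving out 1 array) and from Activin A for 43 (38 to 52, and 27 without normalization). For Wnt3a the count was 8, with 5 to 20 leaving out 1 array. It was 4 when scaled to the 75th percentile of miRNAs detected on all 24 arrays, 3 without normalization, 1 with slide fixed, 4 with slide fixed over 39 arrays and 3 with the 12 arrays of the 4 groups.

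Directions reversed only for miRNAs that were not called. Under normexp correction let-7e came to -0.0029, let-7f* to 0.0063 and miR-20b to 0.16. Quantile normalization within the 6 arrays gave let-7f* 0.001. The processed table gave miR-19b -0.0347. Scaled to the 75th percentile over all miRNAs, the values were let-7f* 0.48, miR-148a -0.19, miR-15a -0.0476, miR-15b -0.0525, miR-19b -0.41, miR-21 -0.0865, miR-221 -0.13 and miR-29c 0.185. Scaled to the 75th percentile of miRNAs detected on all 6 arrays, they were let-7f* 0.79, miR-128 0.0661, miR-19b -0.11, miR-29c 0.49 and miR-34c 0.16. Without normalization they were let-7f* 0.92, miR-126-3p 0.0449, miR-128 0.20, miR-22 0.12, miR-23a 0.0101, miR-29c 0.62, miR-34b-5p 0.04 and miR-34c 0.29. Leaving out 1 array gave ranges of -0.26 to 0.14 for let-7f*, -0.0341 to 0.23 for miR-199a-3p, -0.31 to 0.22 for miR-19b, -0.21 to 0.0265 for miR-20b and -0.24 to 0.0106 for miR-29c.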
